A study of Mus musculus with 27 samples.

Results

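In cultured mouse hepatocytes, 2369 H3K27ac peaks were present in wild-type cells after hypoxia-reperfusion, shared no base with any H3K27ac peak of wild-type cells in normoxia, and shared at least 1 base with an H3K27ac peak of Acly-knockout cells after hypoxia-reperfusion. These gained and kept peaks were 28.7% of the 8252 H3K27ac peaks of wild-type cells after hypoxia-reperfusion. A further 5774 of the 8252 overlapped a normoxia peak, and 109 were gained without a knockout counterpart. The peaks were chosen by their overlap in the 3 H3K27ac lists, so their H3K27ac values describe the peaks and test nothing. H3K9ac and FLAG were read with other antibodies and took no part in the choice.

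The cells were primary hepatocytes of wild-type mice (WT) in normoxia or in hypoxia-reperfusion culture (HR), and of Alb-cre:Aclyf/f mice (KO, labelled AclyKO) in HR, all put into culture conditions 24 hours after isolation. Alb-cre expresses Cre recombinase from the albumin promoter, which removes the floxed part of Acly in hepatocytes. The deletion was not checked here. The series has no CUT&RUN sample of KO cells in normoxia. Whether a kept peak was gained in KO cells or was already there in normoxia therefore cannot be told. CUT&RUN, in which an antibody directs cleavage of the DNA around its target, was done for H3K27ac and H3K9ac in these 3 conditions and, in WT cells, with an anti-FLAG antibody for ACLY. The sources used here do not give how WT cells came to carry the FLAG tag, how long hypoxia lasted, or the age of the mice. Each antibody and condition had 1 library, so no difference between conditions could be tested, and the 95% Wilson intervals printed below cover counting error only.

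H3K27ac and H3K9ac are acetyl groups on lysines of histone H3. H3K27ac lies at active promoters and active enhancers, and H3K9ac mainly at active promoters. Histone acetyltransferases take the acetyl group from acetyl-CoA, which ACLY makes from citrate in the cytosol and the nucleus.

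Promoter sequences are shown for 7 genes, chosen because their peaks had high H3K27ac signal within each of 3 H3K9ac states and a signal maximum near the gene start. Each is the 250 bases before the start, from RefSeq on GRCm38.p6, printed 5′ to 3′ along the gene, with CpG dinucleotides in capitals. Calr, chr8:84846932-84847181 (minus strand), and Rab21, chr10:115315592-115315841 (minus strand), had H3K9ac in all 3 conditions. Hnrnpm, chr17:33685459-33685708 (minus strand), and Bet1, chr6:4086931-4087180 (minus strand), had it in both HR conditions and not in normoxia. Sprr1a, chr3:92485882-92486131 (minus strand), Afm, chr5:90518699-90518948 (plus strand), and Gstm4, chr3:108044857-108045106 (minus strand), had it in none.
Calr: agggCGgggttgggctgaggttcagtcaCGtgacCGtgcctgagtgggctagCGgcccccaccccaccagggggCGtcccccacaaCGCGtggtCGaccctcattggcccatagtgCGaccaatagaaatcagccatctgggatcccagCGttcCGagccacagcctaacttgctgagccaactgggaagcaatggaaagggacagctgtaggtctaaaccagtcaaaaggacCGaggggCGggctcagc
Rab21: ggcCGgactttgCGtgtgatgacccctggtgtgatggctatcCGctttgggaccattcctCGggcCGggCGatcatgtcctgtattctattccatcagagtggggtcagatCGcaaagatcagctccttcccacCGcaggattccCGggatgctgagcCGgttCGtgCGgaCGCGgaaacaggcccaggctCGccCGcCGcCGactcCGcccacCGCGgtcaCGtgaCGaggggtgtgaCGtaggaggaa
Hnrnpm: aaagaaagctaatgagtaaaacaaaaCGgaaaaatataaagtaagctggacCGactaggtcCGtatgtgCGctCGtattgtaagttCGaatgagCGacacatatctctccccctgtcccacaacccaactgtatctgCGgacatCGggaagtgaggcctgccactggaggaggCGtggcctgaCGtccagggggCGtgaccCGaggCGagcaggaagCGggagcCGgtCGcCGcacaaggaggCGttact
Bet1: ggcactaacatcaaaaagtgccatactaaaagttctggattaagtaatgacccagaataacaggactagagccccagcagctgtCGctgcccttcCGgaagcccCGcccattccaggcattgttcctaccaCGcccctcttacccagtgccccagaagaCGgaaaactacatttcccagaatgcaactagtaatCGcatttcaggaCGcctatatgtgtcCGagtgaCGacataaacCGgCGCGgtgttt
Sprr1a: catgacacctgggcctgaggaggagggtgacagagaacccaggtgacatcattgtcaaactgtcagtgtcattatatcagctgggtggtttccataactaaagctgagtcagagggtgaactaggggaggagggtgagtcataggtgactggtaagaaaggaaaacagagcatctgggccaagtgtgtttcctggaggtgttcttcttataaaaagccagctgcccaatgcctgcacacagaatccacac
Afm: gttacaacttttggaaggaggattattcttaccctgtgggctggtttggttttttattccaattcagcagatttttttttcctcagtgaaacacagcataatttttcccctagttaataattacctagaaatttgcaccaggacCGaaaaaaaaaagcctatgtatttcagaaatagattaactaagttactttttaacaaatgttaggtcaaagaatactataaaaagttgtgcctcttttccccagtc
Gstm4: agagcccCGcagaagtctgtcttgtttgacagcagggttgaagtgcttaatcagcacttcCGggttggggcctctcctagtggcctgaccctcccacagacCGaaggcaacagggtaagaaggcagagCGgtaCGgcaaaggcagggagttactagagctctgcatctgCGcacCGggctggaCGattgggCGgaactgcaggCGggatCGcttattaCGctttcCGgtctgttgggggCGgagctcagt
The windows before Calr, Rab21, Hnrnpm, Bet1 and Gstm4 held 13, 24, 19, 12 and 14 CpG dinucleotides, whereas that before Afm held 1 and that before Sprr1a held 0. Promoters of both kinds were therefore among the genes with gained and kept H3K27ac.

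The lists behind these peaks were of unequal length and depth cannot be read from them. H3K27ac peaks numbered 5655 in WT normoxia, 8252 in WT HR and 14418 in KO HR, and H3K9ac peaks numbered 6513, 7593 and 8837. Nearly all WT peaks began and ended on a 10-bp grid, while about 1% of KO peaks did, so their making differed between the genotypes. H3K27ac lay at the start of 12 of 15 hepatocyte marker genes in normoxia and 13 in each HR list, with Pck1 and Serpina1a lacking it throughout, and at 2 or 3 of 18 markers of other liver cells (Cd68 and Lyve1, with Sox9 in KO HR).

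Within the WT HR list the gained and kept peaks were weak and narrow. Total signal is the authors' sum over a peak, on a scale that no source used here explains, and it is compared below only between peaks of WT HR or as a rank within a list. It had a median of 47816 for the gained and kept peaks, with a range of 36822 to 172373, against a median of 102091 for the WT HR peaks that overlapped a normoxia peak. Median width was 4880 bp against 9030 bp. Their median rank was percentile 20.3 of the WT HR list, against percentile 64.6 for the peaks present in normoxia.

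The floor of the lists moved with this result. The weakest peak of the normoxia list had a total signal of 60122, and the weakest peak of the WT HR list had 36822. Of the gained and kept peaks, 1862 (78.6%, interval 76.9 to 80.2) had totals below the normoxia floor, compared with 16.9% of the peaks present in normoxia. Whether the 2 lists share a scale, and how far this difference in floor accounts for the gain, was not tested. At or above the normoxia floor were 507 gained and kept peaks.

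**Figure D1:**
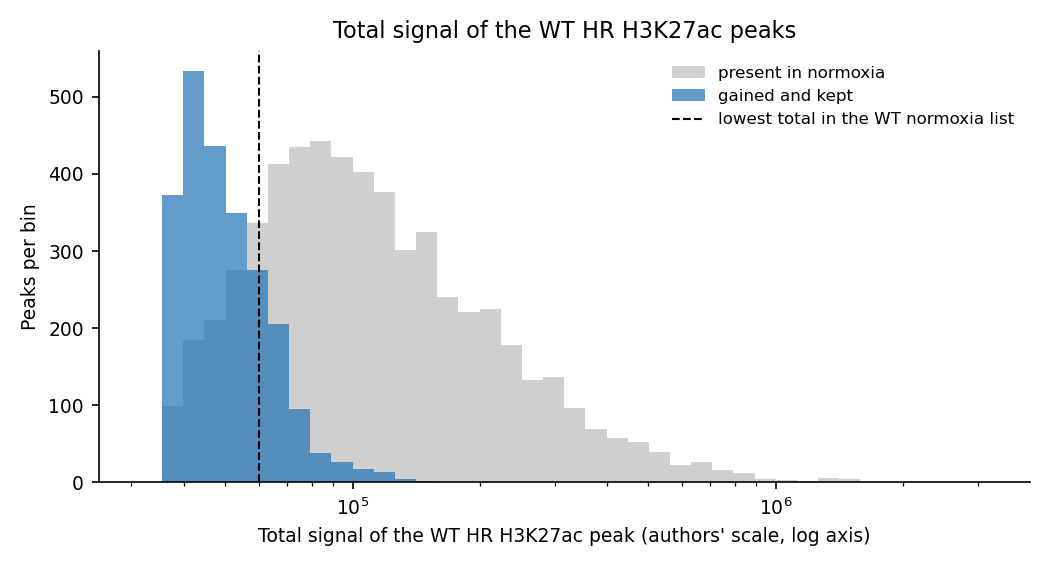
Histogram of the total signal of WT HR H3K27ac peaks (x axis, authors' scale, log axis; y axis, peaks per bin) for the gained and kept peaks and the peaks present in normoxia. The gained and kept peaks crowd at the low end, with a median of 47816, and 1862 of the 2369 lie below 60122, the lowest total of the normoxia list.

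Most of the gained and kept peaks stood well apart from normoxia peaks. The distance to the nearest normoxia H3K27ac peak had a median of 47630 bp, and 216 peaks (9.12%) lay within 5 kb of one. At the edge of the rule, the 3 nearest lay 30, 60 and 70 bp from a normoxia peak, while the 3 peaks left out by the smallest overlap shared 20, 20 and 90 bases with one. On the KO side the smallest overlaps among the kept peaks were 1250, 1327 and 1357 bases, and the nearest misses lay 60, 72 and 518 bp from a KO peak.

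Of the 2478 WT HR peaks without a normoxia counterpart, 95.6% (interval 94.7 to 96.3) had a KO HR peak. That share was 98.0% over all WT HR peaks and 99.06% for the peaks present in normoxia. KO peaks covered a median of 70.7% of the width of a gained and kept peak, against 78.3% for the wider peaks present in normoxia. The signal maxima of the WT and KO peaks were a median of 111 bp apart, against 201 bp for the peaks present in normoxia. The overlapping KO peak ranked at a median of percentile 48.6 of the KO list, against percentile 78.6 for peaks present in normoxia. With the KO list limited to its 8252 strongest peaks, as many as WT HR has, 1525 peaks (61.5% of the gained peaks) counted as kept. The share over all WT HR peaks was not computed for that limited list, so 61.5% has no value to be set against.

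**Figure D2:**
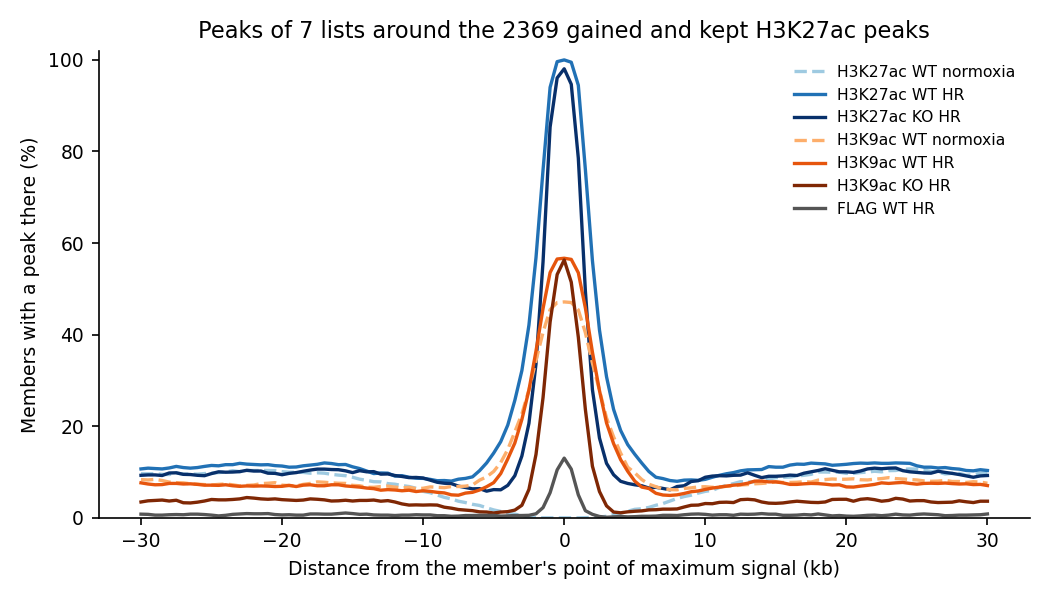
Share of the 2369 gained and kept peaks (y axis, %) that have a peak of each of 7 lists at a given distance (x axis, kb) from their point of maximum H3K27ac signal in WT HR. At the maximum itself 98.06% had KO HR H3K27ac, 47.15% WT normoxia H3K9ac, 56.69% WT HR H3K9ac, 56.31% KO HR H3K9ac, 13.04% FLAG and 0% normoxia H3K27ac, the last fixed by the choice.

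Gene starts were the most common position. A peak was placed at a start when it came within 1 kb of the start of a coding gene. Otherwise it was placed inside a coding gene or between coding genes, with exons and introns not told apart. Noncoding genes were not used, so a peak called between genes may lie in one. Of the gained and kept peaks, 1428 lay at a start (60.3%, interval 58.3 to 62.2), 623 inside a gene (26.3%) and 318 between genes (13.4%), where 55.9% of all WT HR H3K27ac peaks lay at a start. Of the 507 at or above the normoxia floor 71.4% lay at a start, against 60.95% of all 5309 WT HR peaks there. Starts held 54.6% of the peaks present in normoxia and 27 of the 109 peaks gained without a KO counterpart. The maximum lay a median of 576 bp from the nearest coding start, against 6083 bp for the wider peaks present in normoxia.

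H3K9ac was already present in normoxia at many of these sites, although H3K27ac was not listed there. In WT normoxia 1133 gained and kept peaks (47.8%, interval 45.8 to 49.8) overlapped an H3K9ac peak, where 62.9% of all WT HR H3K27ac peaks did. In WT HR the count was 1359 (57.4%, interval 55.4 to 59.3; 64.5% of all), and in KO HR it was 1415 (59.7%, interval 57.7 to 61.7; 68.3% of all). No H3K9ac was listed in any condition at 847 (35.8%), against 25.4% of all.

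These shares depended on signal and on the overlap asked for. At or above the normoxia floor they were 65.3%, 74.2% and 75.2% of the 507 gained and kept peaks, in the same order of lists, against 76.5%, 76.5% and 80.5% of the 5309 WT HR peaks there. Where H3K9ac had to cover 50% of the H3K27ac peak, they were 45.8%, 53.7% and 39.1%, against 54.7%, 52.9% and 30.1% of all. KO HR thus became the lowest, and the order against all peaks turned in both HR lists. Such coverage depends on width. Median H3K9ac peak width was 7790, 6400 and 2961 bp in the same order of lists. The gained and kept H3K27ac peaks had a median width of 4880 bp, against 7410 bp for all WT HR peaks. The part of width in these shares was not tested.

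Position separated the peaks with H3K9ac from those without. At gene starts 75.6% had H3K9ac in WT normoxia, 89.1% in WT HR and 88.9% in KO HR, and 86 of 1428 (6.02%) had it in none. Inside genes the shares were 5.62%, 8.83% and 12.4%, and 515 of 623 (82.7%) had it in none. Between genes they were 5.98%, 10.1% and 21.4%, and 246 of 318 (77.4%) had it in none.

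Away from starts, H3K9ac was rarer at the gained and kept peaks than at peaks present in normoxia. Inside genes, 38.9%, 36.4% and 43.0% of the peaks present in normoxia had H3K9ac in normoxia, WT HR and KO HR, and between genes 47.0%, 39.2% and 55.8% did. At starts those shares were 93.5%, 94.0% and 94.0%. Peaks present in normoxia were also wider and stronger, and the part of width and signal in these differences was not tested. Among the gained and kept peaks at or above the normoxia floor, shares in normoxia, WT HR and KO HR were 86.7%, 96.7% and 94.8% at 362 starts, 12.9%, 15.8% and 18.8% at 101 peaks inside genes, and 9.09%, 22.7% and 43.2% at 44 peaks between genes. Starts stayed highest in each condition, while the order of the other positions in normoxia turned.

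**Figure D3:**
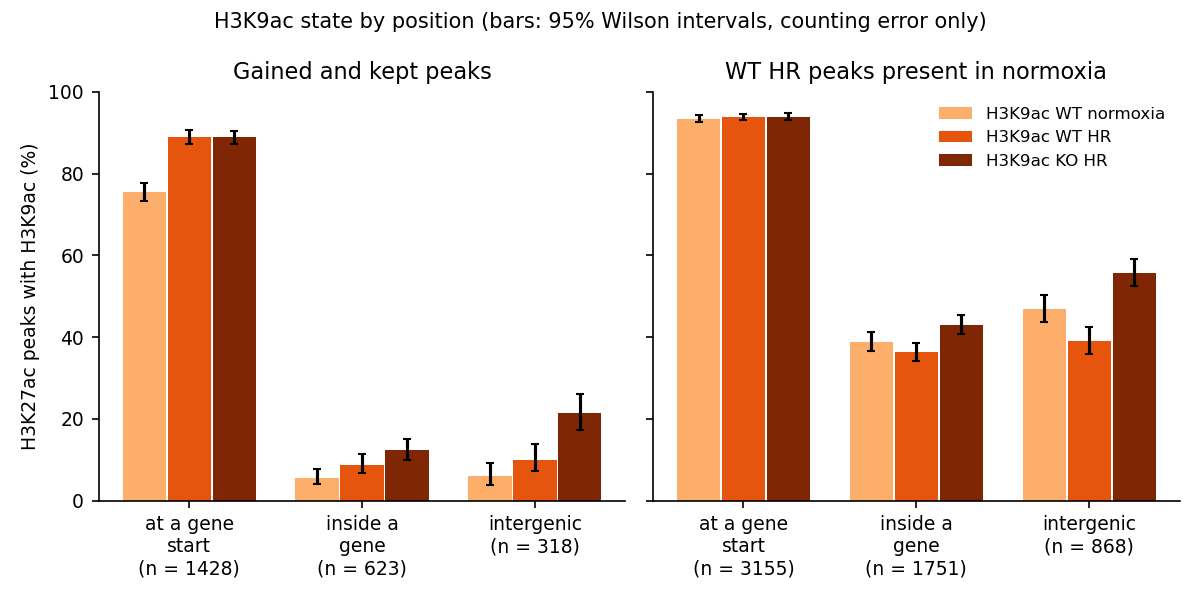
Share of H3K27ac peaks with H3K9ac (y axis, %) in normoxia, WT HR and KO HR, by position at gene starts, inside genes and between genes, for the gained and kept peaks and the peaks present in normoxia; bars are 95% Wilson intervals. At starts the gained and kept peaks lie at 75.6%, 89.1% and 88.9%, and inside genes at 5.62%, 8.83% and 12.4%.

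Read peak by peak, the largest state was H3K9ac in all 3 conditions, at 1065 peaks (44.96%, against 56.1% of all WT HR peaks), 1028 of them at starts. H3K9ac in both HR conditions and not in normoxia was found at 201 peaks (8.49%, against 4.54% of all), 177 of them at starts. WT HR alone had it at 48 peaks (2.03%, against 1.32% of all). KO HR alone had it at 140 peaks, 59 of them at starts, a share of 5.91% that was near the 5.89% of all. H3K9ac was listed in normoxia and not in WT HR at 23 peaks. Of these, 9 had it in KO HR (0.38%, against 1.75% of all) and 14 did not (0.59%, against 2.51% of all). Of the 249 peaks with H3K9ac in WT HR and not in normoxia, 128 (51.4%) had an H3K9ac total in WT HR below the floor of the normoxia H3K9ac list, so the same limit of unequal floors touches this mark.

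H3K9ac peaks at these sites ranked low in normoxia. Their median percentile was 35.5 in the WT normoxia list, 48.2 in WT HR and 51.2 in KO HR, against 66.3, 70.5 and 70.7 at the peaks present in normoxia. Ranks in lists of unequal length show order within a list and no change between them.

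The strongest gained and kept peak spanned the starts of Calr and Gadd45gip1, at chr8:84830941-84849280 (mm10). Calr encodes calreticulin, a chaperone of the endoplasmic reticulum. Its total signal of 172373 ranked at percentile 83.4 of WT HR, and 122310 bp separated it from the nearest normoxia H3K27ac peak. The strongest overlapping KO peak ranked at percentile 81.7 of KO HR, H3K9ac peaks there ranked at percentiles 77.2, 94.9 and 80.3 of the WT normoxia, WT HR and KO HR lists, and 2 FLAG peaks lay inside it. The site thus lay in the upper range of 5 acetylation lists and had no peak in the normoxia H3K27ac list.

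The Rab21 start, of a small GTPase of endosomes, was next, at chr10:115296011-115317550, with a total of 155555 and H3K9ac at percentiles 52.8, 65.8 and 45.7 in the same order of lists. Tmem250-ps (137567), Tmem245 (128128), Bag4 with Lsm1 (120370), N4bp2l2 (119224), Ifi35 with Rpl27 (117161) and Stbd1 (116545) completed the 8 strongest peaks at named starts. BAG4 is a cochaperone of HSP70, LSM1 acts in mRNA decay, RPL27 is a protein of the large ribosomal subunit and STBD1 binds glycogen. All 8 of these peaks had H3K9ac in all 3 conditions. At Tmem250-ps and Stbd1 the H3K27ac maximum lay 6647 and 4095 bp from the start. At Tmem250-ps no H3K9ac peak reached that maximum.

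Among peaks with H3K9ac in both HR conditions and none in normoxia, the strongest lay at Hnrnpm with Marchf2 (107600), Bet1 (104130), Gsta2 (103447), Shroom2 (95727) and Mtx2 (78418). HNRNPM is a splicing regulator, BET1 a membrane fusion protein of transport between endoplasmic reticulum and Golgi, GSTA2 a glutathione transferase and MTX2 a protein of mitochondrial import. Their H3K9ac peaks were weak in WT HR, at percentile 19.3 for Hnrnpm, 0.74 for Bet1, 1.07 for Gsta2, 25.3 for Shroom2 and 14.9 for Mtx2. In KO HR the same sites ranked between percentile 24.4 (Mtx2) and percentile 52.96 (Shroom2). The floor of the normoxia H3K9ac list was 37767. WT HR H3K9ac totals at Hnrnpm (37249), Bet1 (30072), Gsta2 (30196) and Mtx2 (35423) lay below it, and that at Shroom2 (39768) above it. Whether these lists share a scale was not tested.

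Of the 23 peaks with H3K9ac in normoxia and none in WT HR, the strongest at starts lay at Igsf11 (63427), Hsd3b7 (52652), Gtf2h2 (48235) and Rilp with Scarf1 (45171). Their normoxia H3K9ac peaks ranked at percentiles 12.1, 18.6, 1.49 and 2.12. HSD3B7 is an enzyme of bile acid synthesis, and GTF2H2 a subunit of the transcription and repair factor TFIIH.

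The strongest peaks at starts with no H3K9ac in any list lay at Slc25a48 (88209), Sprr1a (66619), Afm (65588), Dyrk1a (64773), Nipsnap1 (63609) and Gstm4 (59764). AFM is a plasma glycoprotein that hepatocytes secrete, SPRR1A a structural protein of cornified epithelia that is also induced in stressed cells, and GSTM4 a glutathione transferase. The maximum lay 45 bp from the start at Sprr1a, 115 bp at Gstm4 and 543 bp at Afm. At Slc25a48, Dyrk1a and Nipsnap1 it lay 5411, 2103 and 8885 bp away, so there the summit lay apart from the start. KO peaks covered 12.1% of the Dyrk1a peak, the lowest share of all gained and kept peaks, and a normoxia H3K27ac peak lay 2420 bp from it. Coverage by KO peaks was 31.3% at Gstm4, 32.9% at Slc25a48, 54.9% at Nipsnap1, 58.2% at Sprr1a and 74.8% at Afm.

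Away from starts, the strongest peak between coding genes was at chr15:62110401-62136710, 120040 bp from Myc, the nearest coding gene in the annotation used. Whether it lay in a noncoding gene was not examined. MYC is a transcription factor of growth and ribosome production. This peak had a total of 137016 and no H3K9ac in any list. Peaks near Asgr2 (a subunit of the hepatocyte asialoglycoprotein receptor; 92000) and Fam161a (94540) had H3K9ac in both HR lists, and one near Ndufb3 (98402) in KO HR. Inside genes the strongest lay in Lrrc8d (141754), Nsun2 (129362), Atf7 (122004) and Kif1b (115862), of which Atf7 and Kif1b had no H3K9ac.

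**Figure D4:**
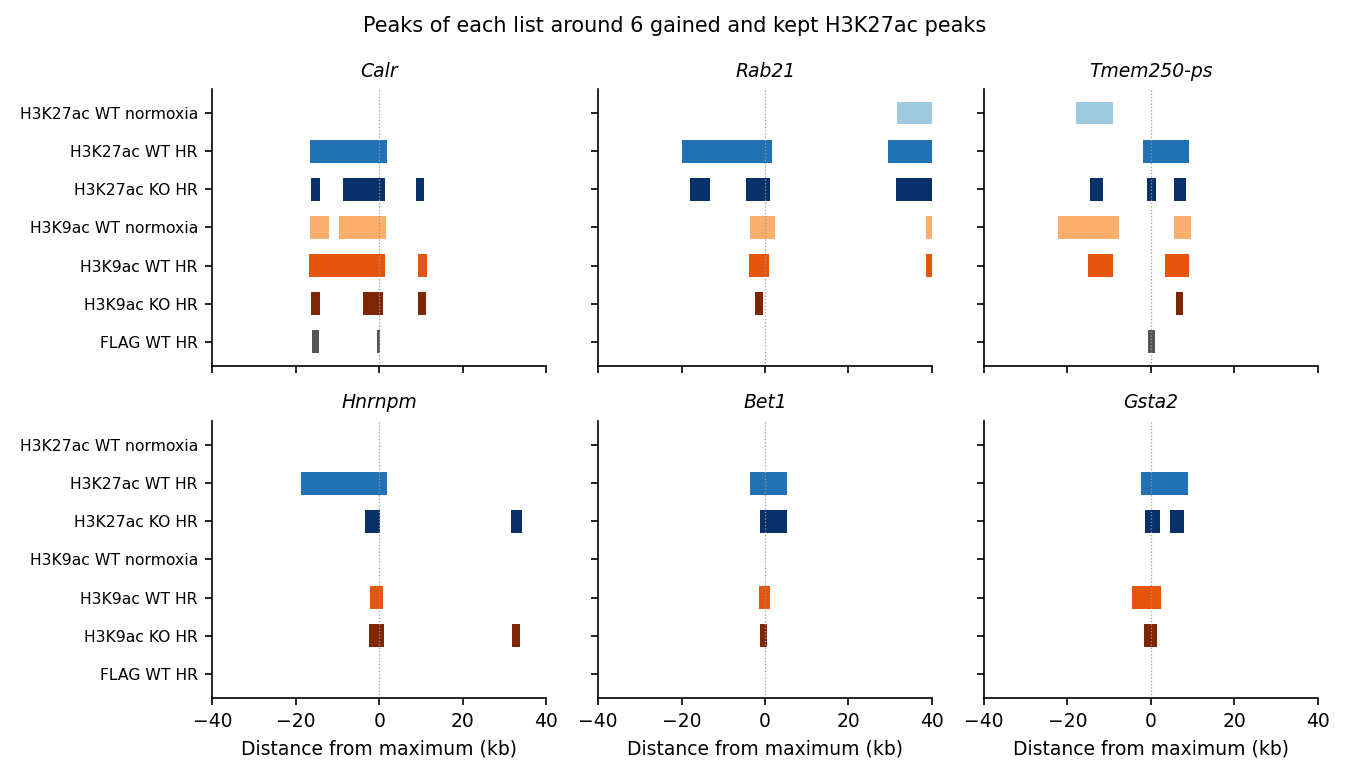
Positions of the peaks of each list around the maximum of 6 gained and kept peaks (x axis, distance from the maximum in kb; 1 line per list, bars span the peaks). No bar of normoxia H3K27ac lies over any of the 6. H3K9ac bars of WT normoxia lie over the Calr, Rab21 and Tmem250-ps peaks and not over the Hnrnpm, Bet1 and Gsta2 peaks. At Hnrnpm, Bet1 and Gsta2 the WT HR H3K9ac totals lay below the lowest total of the normoxia H3K9ac list.

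A coding gene start with a gained and kept peak was found for 1736 genes, 7.93% of the 21887 coding genes and 31.3% of the 5548 with WT HR H3K27ac at the start. H3K9ac lay at the start of 1373 of the 1736 (79.1%) in WT normoxia, 1580 (91.0%) in WT HR and 1550 (89.3%) in KO HR. At the gene level 223 starts (12.85%) had H3K9ac in WT HR and not in normoxia, and 16 (0.92%) the reverse. No such share was computed over all genes. KO HR H3K27ac lay at the start itself for 1706 (98.3%). With peaks at or above the normoxia floor, 468 genes had such a start, 2.14% of the coding genes.

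Gene lists are read below against 31.3%, the share of gained and kept starts among all genes with WT HR H3K27ac at the start. By that measure ribosome assembly (68.4% of 19), the mitochondrial ribosome (71.4% of 7), the respiratory chain (66.7% of 18), DNA repair (63.6% of 11) and cell cycle and replication (60% of 5) lay above it. Cytosolic ribosomal proteins (9 of 30), translation factors (29.2% of 24), vesicle coats (34.6% of 26), aminoacyl-tRNA synthetases (35.3% of 17), splicing factors (36.8% of 19) and the proteasome (40.7% of 27) lay near it. Hepatocyte markers (7.69% of 13), complement, coagulation and acute phase genes (9.09% of 22), targets of the hypoxia-inducible factors (11.1% of 9), core clock and nuclear receptor genes (11.8% of 17), NRF2 targets (0 of 16) and cholesterol and fatty acid synthesis genes (0 of 20) lay below it. Also near 31.3% were immediate early (30% of 10), NF-kB (31.25% of 16), heat shock (33.3% of 15) and apoptosis and p53 genes (33.3% of 15). RNA polymerase II and Mediator (35.7% of 14), acetyl-CoA supply and histone acetyltransferases and deacetylases (36.4% of 11 each) were near it too. Fatty acid oxidation (25% of 16), endoplasmic reticulum stress (22.2% of 18), ubiquitin (22.2% of 27) and autophagy and lysosome genes (21.05% of 19) had lower shares. Their distances from 31.3% were similar to that of the proteasome, so they too are read as near it. Some shares away from 31.3% rest on few genes: 3 of 5 for cell cycle and replication, 5 of 7 for the mitochondrial ribosome and 1 of 9 for targets of the hypoxia-inducible factors. H3K9ac of the genes in these lists is read within 1 kb of the start.

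The ribosome is assembled in the nucleolus by factors that process its RNA and join its proteins. Ribosome assembly genes had a gained and kept peak at 13 of 30 starts, with normoxia H3K27ac at 6 others and 2 of the 13 above the normoxia floor. They were Bysl, Fbl, Imp3, Ncl, Nop10, Nop14, Nop58, Npm1, Pes1, Tsr1, Utp15, Utp20 and Wdr12. The Nop58 peak, at a gene of box C/D particles that guide RNA methylation, had a total of 71868 and that of Fbl, the methyltransferase of those particles, 63406. Npm1, a nucleolar chaperone, had 39980, with a FLAG peak; H3K9ac lay at its start in both WT lists, and the KO HR H3K9ac peak overlapped the H3K27ac peak outside the start window. H3K9ac lay at 12 of the 13 starts in normoxia, 13 in WT HR and 12 in KO HR.

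Cytosolic ribosomal protein genes had H3K27ac at all 30 starts in WT HR, of which 9 were gained and kept and 21 had it in normoxia. Among the 9 were Rpl5, Rpl6, Rpl8, Rpl22, Rpl27, Rplp1, Rps15 and Rps28, with totals from 40738 (Rplp1) to 117161 (Rpl27). H3K9ac lay at all 9 in all 3 conditions. Processed copies of ribosomal protein genes are frequent in the genome, and no source used here says how reads that match several places were treated. Translation factors had 7 of 29, led by Eif3g (109673) and Eif2s2 (98902), and aminoacyl-tRNA synthetases 6 of 20, led by Mars1 (91249) and Yars (87891). Splicing factors had 7 of 30, among them Srsf1 (66518) and Srsf6 (70877).

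The respiratory chain transfers electrons to oxygen and drives ATP synthesis in mitochondria. Its nuclear-encoded subunits had 12 of 28 starts gained and kept, 8 with normoxia H3K27ac (Ndufs1 is in both counts, through another start window), and 5 of the 12 above the normoxia floor. Succinate dehydrogenase contributed Sdha (63684), Sdhb (44996) and Sdhc (65074), where Sdhb had H3K9ac in both HR lists and not in normoxia. Complex I contributed 4 genes, among them Ndufs1 (73325), whose peak also covers the start of Eef1b2, and cytochrome oxidase contributed Cox4i1 (70738) and Cox7c (37978). Mitochondrial ribosome genes had 5 of 28, with 1 in normoxia and 22 with H3K27ac in neither list.

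The list of acetyl-CoA supply bears on the enzyme deleted in KO cells. Its share, 36.4% of the 11 genes with WT HR H3K27ac at the start, was near the 31.3% of all such genes. Of 15 genes, 4 had a gained and kept peak, and all 4 were weak: Crat (44985), Pdha1 (40856), Dlat (38638) and Dld (37488), below the normoxia floor. Pdha1, Dlat and Dld encode subunits of the pyruvate dehydrogenase complex, and Crat carnitine acetyltransferase. H3K9ac lay at Crat, Dlat and Dld in all 3 conditions and at Pdha1 in both HR lists alone. Histone acetyltransferases and deacetylases had 4 of 27: Kat7, Kat8, Hdac4 and Sirt2.

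In protein quality control, proteasome genes had 11 of 31, with H3K9ac at all 11 in all 3 conditions and the highest totals at Psma7 (116430), a core particle subunit, and Psmd6 (114053), a regulatory particle subunit. Ubiquitin genes had 6 of 32 and vesicle coat and secretory transport genes 9 of 31, among them Sec61a1, Sec61b and Sec61g of the translocation channel. Heat shock genes had 5 of 18. At Hspa1b, which encodes an inducible HSP70, the peak had a total of 41113, a FLAG peak and H3K9ac in KO HR alone. Dnajb1, an HSP40 cochaperone, had 46199, FLAG and H3K9ac in all 3. Hspa1b has a near-identical copy, Hspa1a, next to it, so its value is uncertain. Endoplasmic reticulum stress genes had 4 of 20, Calr, Hyou1 (103397), Dnajb9 (71107) and Chac1 (69402), all 4 above the normoxia floor.

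Of the stress response lists, immediate early genes had 3 of 17, Fos (51245), Atf3 (65496) and Egr1, with H3K9ac at all 3 in all 3 conditions. The Fos peak lay 6580 bp from a normoxia H3K27ac peak and held FLAG. Among targets of the hypoxia-inducible factors 1 of 18 had a gained and kept peak, Ero1a (61617), a protein disulfide oxidase, while 8 had normoxia H3K27ac. NRF2 targets, of the oxidative stress response, had 0 of 18 and 16 with normoxia H3K27ac. DNA repair genes had 7 of 24, led by Fen1 (77143) and Lig3 (71340). Apoptosis and p53 genes had 5 of 29, among them Trp53 (85622), and NF-kB genes 5 of 25, where Relb, Nfkbiz and Cxcl10 had no H3K9ac in any list.

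Genes of hepatocyte identity and lipid synthesis mostly had H3K27ac in normoxia already. Cholesterol and fatty acid synthesis genes had 0 of 27, with 21 carrying normoxia H3K27ac at the start. Hepatocyte markers had 1 of 15, Asgr1, whose peak of 36916 was near the lowest of the list and had no H3K9ac, and 12 with normoxia H3K27ac. Markers of other liver cells had 0 of 18, with 2 carrying normoxia H3K27ac. Complement, coagulation and acute phase genes had 2 of 36, F12 and Mbl2, and 21 with normoxia H3K27ac. A gene whose start had H3K27ac in normoxia could not be counted as gained there, so such lists left few genes that the choice could take.

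The remaining lists were autophagy and lysosome with 4 of 30, RNA polymerase II and Mediator with 5 of 34, cell cycle and replication with 3 of 30, fatty acid oxidation with 4 of 24, and core clock and nuclear receptors with 2 of 30. Acadl, of fatty acid oxidation, had 62503 with FLAG and H3K9ac in both HR lists alone. Cdk4 (83572) and Mcm7 (86115) had H3K9ac in all 3 conditions and FLAG. Counts in all these lists describe the genes and were not tested against other genes.

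**Figure D5:**
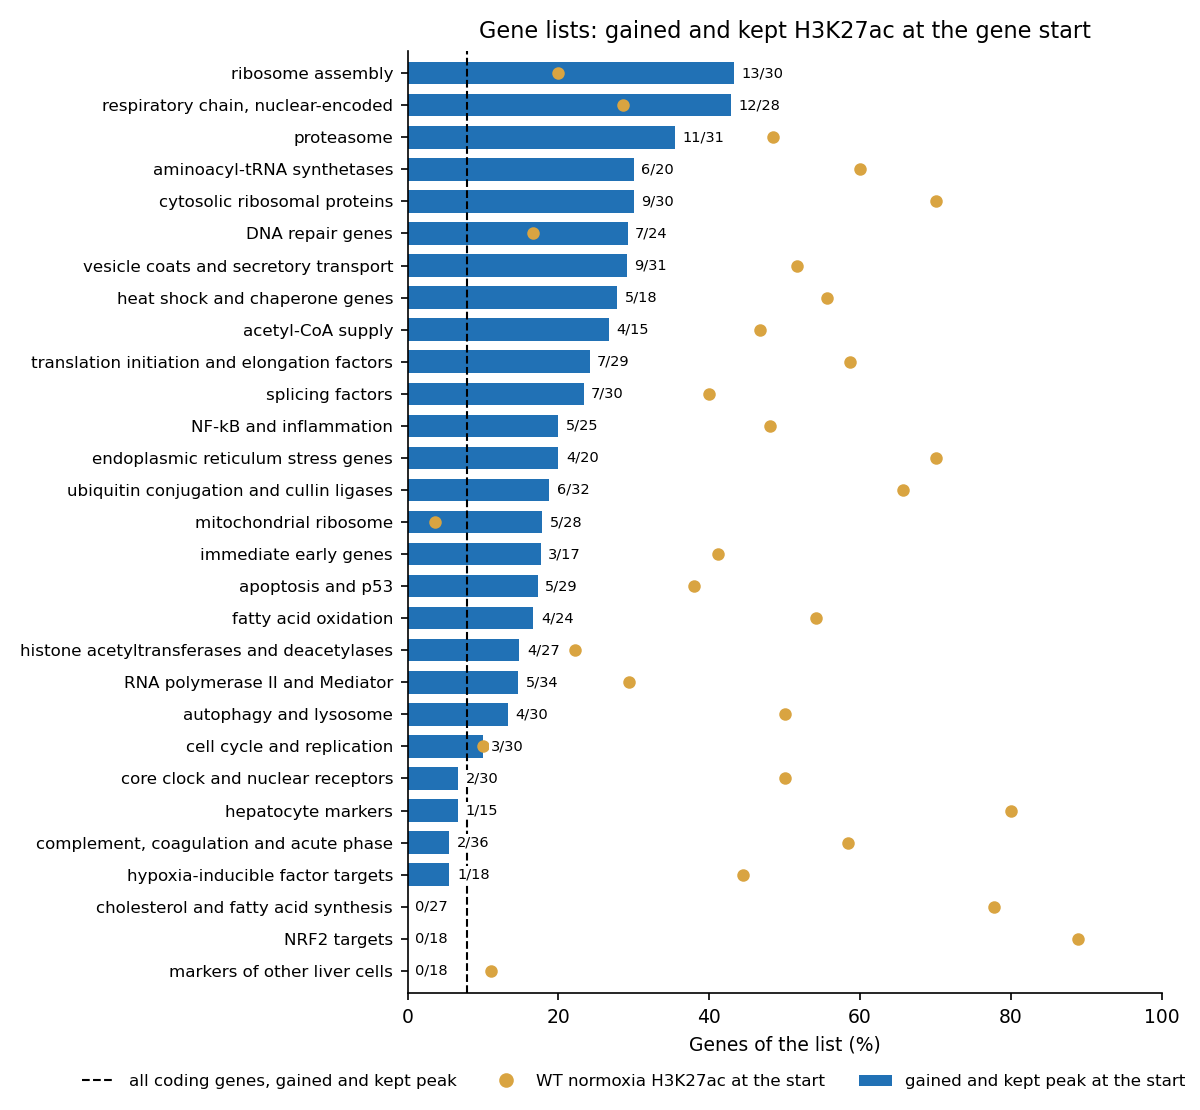
Share of the genes of each list (x axis, %) with a gained and kept H3K27ac peak at the start (bars, with counts) and with normoxia H3K27ac at a start (points); the dashed line is the share of all coding genes with a gained and kept peak. Ribosome assembly (13 of 30) and the respiratory chain (12 of 28) had the highest shares of gained and kept peaks, against 7.93% for all coding genes, and NRF2 targets, cholesterol and fatty acid synthesis and markers of other liver cells had 0. The 7.93% also counts genes without WT HR H3K27ac at the start. Among genes with it the share was 31.3% over all. There the mitochondrial ribosome had 71.4%, ribosome assembly 68.4%, the respiratory chain 66.7% and cytosolic ribosomal proteins 30%.

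FLAG peaks overlapped 371 gained and kept peaks in WT HR (15.7%, interval 14.2 to 17.2), where 19.5% of all WT HR H3K27ac peaks had one. The share was 21.4% at peaks present in normoxia and 6 of 109 at peaks gained without a KO counterpart. Per megabase of peak the order was the other way, with 27.7 FLAG peaks per Mb at the gained and kept peaks and 18.8 at the wider peaks present in normoxia. In peaks of at most 4 kb FLAG lay at 15.6% against 8.19% of those present in normoxia, and in peaks over 10 kb at 7.96% against 26.8%. The order of the classes thus depends on width. At or above the normoxia floor FLAG lay at 20.5% of the gained and kept peaks, against 23.6% of all WT HR peaks there. Where FLAG had to cover 50% of the peak, the shares were 2.87% and 1.32%, and the order turned.

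FLAG was most frequent at gene starts and beside H3K9ac. It lay at 325 gained and kept peaks at starts (22.8%), 23 inside genes (3.69%) and 23 between genes (7.23%). All WT HR peaks had the same order at higher shares, 28.3%, 6.40% and 12.4%. Of the 1359 peaks with H3K9ac in WT HR 316 had FLAG (23.3%), and of the 1010 without it 55 (5.45%). All WT HR peaks were split in the same direction. Among them FLAG lay at 1313 of 4627 with H3K9ac in all 3 conditions and at 82 of 2092 with none. For the gained and kept peaks those counts were 249 of 1065 and 35 of 847. The normoxia FLAG list held 1 peak, which overlapped none of these sites, so FLAG is described in HR alone. Most gained and kept peaks had no FLAG peak in WT HR.

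By FLAG signal, Klf15 led, with a FLAG total of 17664 at percentile 99.8 of the FLAG list. KLF15 is a transcription factor of amino acid and glucose metabolism in liver, and its H3K27ac peak was weak, at 43531. N4bp2 (14775), Aloxe3 (12523), Crebrf (11278), Hnrnpr (10399) and Pex7 (10095) followed. CREBRF regulates the stress factor CREB3, and PEX7 imports proteins into peroxisomes. Klf15, N4bp2 and Hnrnpr had H3K9ac in all 3 conditions, Aloxe3 and Crebrf in both HR lists alone, and Pex7 in none.

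CpG content of the promoters went with H3K9ac state in these lists. A promoter was called CpG-rich where GC content of the 250 bases was above 55% and the observed over expected CpG ratio above 0.65. Of 1659 promoters with a gained and kept peak 59.6% were CpG-rich (interval 57.2 to 61.9), against 56.3% of those with a peak present in normoxia and 33.9% of all 21263. With H3K9ac in all 3 conditions it was 64.5% of 1237, with H3K9ac in WT HR and none in normoxia 54.9% of 215, and with none in any condition 19.8% of 81 (interval 12.5 to 29.7). The median number of CpG dinucleotides was 19 in the first of these groups and 6 in the last. Of the printed windows, those of Rab21, Hnrnpm and Gstm4 met this definition, Gstm4 narrowly with a ratio of 0.654. Those of Calr (ratio 0.542), Bet1 (GC 50.8%), Sprr1a and Afm did not, so these 7 do not follow H3K9ac state.

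Motifs were searched as letters on both strands of the same windows. The ETS letters CCGGAAG were in 19.7% of the 1659 promoters, against 14.5% of those with a peak present in normoxia and 8.98% of all promoters. The NRF1 letters CGCANGCG were in 19.4%, 15.1% and 9.17%, and the GC box GGGCGG in 59.4%, 60.6% and 42.6%. The core of the hypoxia response element, ACGTG, which the E-box CACGTG contains, was in 25.2%, 23.6% and 17.8%. Each of these motifs holds CpG, and the part of CpG content in the differences was not tested. The TATA box TATAAA was in 5.12%, 6.36% and 11.6%, and the AP-1 letters TGANTCA in 3.56%, 4.92% and 6.13%. The CCAAT box (its name gives the letters), the cAMP response element TGACGTCA, the YY1 letters AAGATGG, the antioxidant response letters TGACNNNGC and the heat shock letters GAANNTTC were in 33.8%, 3.26%, 4.94%, 11.6% and 5.43% of the 1659 promoters, against 35.4%, 1.92%, 4.13%, 10.4% and 6.17% of all promoters.

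In the 81 promoters without H3K9ac the TATA box was in 11 (13.6%), the AP-1 letters in 10 (12.3%) and the GC box in 25 (30.9%). The CCAAT box was in 49.4% of them, the ETS letters in 13.6%, the YY1 letters in 11.1% and the heat shock letters in 9.88%. The hypoxia response core was in 22.2%, the antioxidant response letters in 11.1%, the E-box in 7.41%, the NRF1 letters in 4.94% and the cAMP response element in 2.47%. The window of Sprr1a held the TATA box, the CCAAT box, the AP-1 letters and the antioxidant response letters, and that of Afm the TATA box and the CCAAT box. The Calr window held 5 of the 12 motifs searched: the CCAAT box, the GC box, the hypoxia response core, the E-box and the antioxidant response letters. A match gives letters in a window and no binding.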

How the data were processed

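Peak lists of CUT&RUN in primary hepatocytes were used: 7 lists, with 1 library each, plus the normoxia FLAG list of 1 peak. The authors deposited, per peak, coordinates, a total signal and a maximum signal. The submitters' processing notes name the build mm10 and the tools Trimmomatic and kallisto; the aligner, the peak caller, its threshold and control, and the signal's scale are not given in the sources used here. From the series, 16 RNA libraries and 3 IgG samples took no part. Depth is unknown. WT lists lie on a 10-bp grid and KO lists do not.

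Overlap means at least 1 shared base, with starts counted from 1. Groups come from the sample titles and labels. Coding genes were 21887 of RefSeq on GRCm38.p6, the assembly mm10 names; starts of 17492 came from the promoter table, and both gene ends served where strand was not given. Shares carry 95% Wilson intervals. Named genes are the first by total signal of the WT HR peak in each H3K9ac state and position, the first 6 by FLAG signal, and genes of fixed lists; chromosome 18 and unnamed gene models were left out of the ranking, and no sequence from chromosome 18 is shown. A few named genes are not reported here. The peaks and lists were chosen with earlier results of these data known, and promoter composition and motifs were added later. Alternatives varied the overlap, the distance to normoxia peaks, the strength of WT and KO peaks and the start window. The overlap code was tested on simulated data. Python 3.11.15, numpy 2.4.6 and matplotlib 3.10.9 were used.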

Additional observations from a re-analysis of the deposited data

How the results depend on the processing

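The number of gained and kept peaks and the shares that describe them depended on signal thresholds more than on distance. With at least 50% of the peak covered by KO peaks, the kept share of the gained peaks was 77.8% and the KO HR H3K9ac share 62.3%, while the count (1927), the gene count (1441) and the other shares stayed near the main values. Among WT HR peaks above the median signal of that list, 132 peaks at 128 genes remained, 100% of the gained peaks there were kept, H3K9ac shares were 68.2%, 76.5% and 76.5% in normoxia, WT HR and KO HR, FLAG 23.5% and gene starts 72.7%. With the KO list limited to as many peaks as WT HR, 1525 peaks at 1139 genes were kept (61.5%), with H3K9ac at 50.3% in WT normoxia and 64.8% in KO HR and FLAG at 17.7%. When H3K9ac or FLAG had to cover 50% of the peak, the shares were 45.8%, 53.7% and 39.1% for H3K9ac and 2.87% for FLAG. A start window of 5 kb gave a start share of 63.4%. An alternative chosen after seeing the data kept WT HR peaks at or above the normoxia floor: 507 peaks at 468 genes, 99.02% kept, H3K9ac at 65.3%, 74.2% and 75.2%, FLAG at 20.5% and starts at 71.4%. The cause of these differences was not tested. None of the kept shares under these alternatives was computed over all WT HR peaks. Leaving out peaks within 5 kb of a normoxia peak left 2153 peaks and moved no share beyond its interval.

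No paired analysis was possible because each antibody and condition had 1 library and no result comes from a test. Replicates could not be left out. Signal below a list's threshold is not listed, and depth is unknown.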

Other observations

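On chromosome X, 57 of 113 WT HR H3K27ac peaks were gained and kept (50.4%, interval 41.4 to 59.5), against 28.4% of 8135 on the autosomes. Among peaks at or above the normoxia floor the shares were 26.1% of 46 (interval 15.6 to 40.3) and 9.41% of 5262. This difference was noticed in the data and was not tested. Genes there with a gained and kept peak at the start included Uba1 (48736), which encodes a ubiquitin-activating enzyme, Med14 (41340), a Mediator subunit, Ikbkg (42939), a regulator of NF-kB signalling, and Pdha1.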
